A study of Mus musculus with 4 samples.

Results

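Of the 13452 Ensembl genes counted in the mouse retina, 7 genes that encode subunits of the ionotropic GABA-A and glycine receptors were examined: Gabra2, Gabra3, Gabrb1, Glra1, Glra2, Glra3 and Glrb. They were taken by name from the deposited table, in which they had 16 isoforms and 6169 counts of the 148422478 counts on Ensembl genes. The retinas came from male wild-type C57BL6/J mice, and the cDNA of single cells, made with the 10x Genomics chemistry, gave long nanopore reads. There were 4 libraries: 2 had no enrichment (1 from postnatal day 40, the other with no age in its labels), 1 had CD73 enrichment at postnatal week 8 and 1 had CD90.2 enrichment at postnatal month 4. Photoreceptors carry CD73 on their surface, and neurons such as ganglion cells carry CD90.2. The design text names fluorescence sorting, whereas the protocol describes magnetic separation that removed CD73-positive cells and kept CD90.2-positive ones. Counts are given for 6 cell classes, amacrine cells, bipolar cells, cones, Müller glia, rods and retinal ganglion cells, with no library named in a column. A class was therefore 1 sample without a replicate, and no test between classes was possible. The intervals below are exact 95% intervals that cover counting error only and treat each count as independent. Whether reads were collapsed to molecules is not given in the sources used here. If they were not, the intervals are too narrow.

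GABA and glycine are the fast inhibitory transmitters of the retina, released mainly by amacrine cells onto bipolar cells, ganglion cells and other amacrine cells. Both open chloride channels of the pentameric Cys-loop family. GABA-A receptors combine α, β and further subunits such as γ or δ, and Gabra2 and Gabra3 encode α subunits while Gabrb1 encodes a β subunit. Glycine receptors combine α subunits, encoded here by Glra1, Glra2 and Glra3, with the β subunit Glrb, which binds gephyrin, the scaffold of inhibitory synapses. In every subunit an extracellular part that binds the transmitter is followed by the transmembrane segments that line the pore.

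The column totals ran from 3509890 counts in ganglion cells to 55437340 in rods, and were 48248340 for amacrine cells, 29010038 for bipolar cells, 7307134 for cones and 6133094 for Müller glia. All 36 markers listed for the 6 classes were highest in the class they mark. The 6 amacrine markers summed to 686 CPM, counts per 1000000 counts of the column, in the amacrine column. They summed to 41.6 CPM in ganglion cells, where 5 of 6 were above 0, and 13.2 CPM in rods. Most of the ganglion cell sum came from Pax6, at 24.2 CPM, and Tfap2b, at 13.1 CPM. In rods Tfap2b gave 4.37 CPM, Pax6 4.09 CPM and Slc6a9 3.63 CPM. The 6 ganglion cell markers summed to 17736 CPM in ganglion cells, where Sncg gave 15741 CPM, and to 692 CPM in amacrine cells. In amacrine cells Sncg gave 333 CPM, Thy1 317 CPM and Nefl 40.2 CPM. Rbpms, Pou4f1 and Pou4f2 were at 0.684, 0.207 and 0.269 CPM there. The 4 horizontal cell markers in the table summed to 73.1 CPM in amacrine cells, of which Calb1, a gene that amacrine cells use too, gave 72.1 CPM. The part of such shared RNA in the results below was not tested. Levels are given in CPM and compared only within a gene. A level cannot tell a higher level per cell from a larger share of cells that use the gene.

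All 7 genes share 2 coding exons of fixed length, and several isoforms described below end at them or leave them out, so their sequences are shown first. The 68-nt exon lies early in the part that binds the transmitter. The 83-nt exon encodes the Cys-loop, the disulfide-bridged loop that names the family. Both were present once in each reference transcript (GENCODE M21, GRCm38) and started at the same position of the reading frame in all 7 genes. Capitals mark the bases identical in all 7 genes, 16 of 68.
Gabra2 exon 4, chr5:71034730-71034797, minus strand: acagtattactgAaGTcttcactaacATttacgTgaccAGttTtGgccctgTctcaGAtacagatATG
Gabra3 exon 4, chrX:72511305-72511372, minus strand: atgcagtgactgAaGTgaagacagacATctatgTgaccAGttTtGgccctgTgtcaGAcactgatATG
Gabrb1 exon 3, chr5:71700805-71700872, plus strand: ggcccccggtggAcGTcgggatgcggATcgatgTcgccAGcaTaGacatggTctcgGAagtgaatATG
Glra1 exon 3, chr11:55566209-55566276, minus strand: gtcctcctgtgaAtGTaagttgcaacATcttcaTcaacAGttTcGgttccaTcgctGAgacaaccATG
Glra2 exon 3, chrX:165289599-165289666, minus strand: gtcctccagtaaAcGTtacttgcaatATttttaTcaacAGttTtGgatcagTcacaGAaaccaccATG
Glra3 exon 3, chr8:56005117-56005184, plus strand: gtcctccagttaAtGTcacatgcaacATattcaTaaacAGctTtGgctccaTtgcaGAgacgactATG
Glrb exon 4, chr3:80878009-80878076, minus strand: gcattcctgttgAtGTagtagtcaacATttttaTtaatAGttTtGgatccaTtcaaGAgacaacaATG
The 26 capitals of the 83-nt exon mark the same.
Gabra2 exon 6, chr5:71012701-71012783, minus strand: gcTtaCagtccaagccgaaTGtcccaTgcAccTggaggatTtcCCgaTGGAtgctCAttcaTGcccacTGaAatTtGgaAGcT
Gabra3 exon 6, chrX:72476226-72476308, minus strand: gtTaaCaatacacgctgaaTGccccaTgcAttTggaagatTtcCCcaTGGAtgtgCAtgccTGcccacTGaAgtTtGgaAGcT
Gabrb1 exon 5, chr5:72029827-72029909, plus strand: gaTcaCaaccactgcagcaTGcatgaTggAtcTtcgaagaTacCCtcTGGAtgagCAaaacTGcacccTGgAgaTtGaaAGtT
Glra1 exon 5, chr11:55533824-55533906, minus strand: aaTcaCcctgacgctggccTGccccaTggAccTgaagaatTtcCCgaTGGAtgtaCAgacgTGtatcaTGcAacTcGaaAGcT
Glra2 exon 5, chrX:165257106-165257188, minus strand: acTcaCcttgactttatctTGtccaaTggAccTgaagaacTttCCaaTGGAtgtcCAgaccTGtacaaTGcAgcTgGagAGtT
Glra3 exon 5, chr8:56062431-56062513, plus strand: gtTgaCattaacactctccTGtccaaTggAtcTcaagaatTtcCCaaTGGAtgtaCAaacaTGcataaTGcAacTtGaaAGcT
Glrb exon 6, chr3:80861703-80861785, minus strand: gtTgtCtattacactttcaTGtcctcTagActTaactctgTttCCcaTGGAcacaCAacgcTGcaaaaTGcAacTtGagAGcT
Between glycine subunits 64.7 to 79.4% of the bases of the 68-nt exon were identical, between GABA-A subunits 44.1 to 75%, and across the families 38.2 to 55.9%. In the 83-nt exon these ranges were 56.6 to 77.1%, 54.2 to 80.7% and 47 to 66.3%. Within the GABA-A subunits the high value was in both exons that of the α pair Gabra2 and Gabra3.

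By level, 4 of the 7 genes were highest in amacrine cells (Gabra3, Gabrb1, Glra2 and Glra3), 2 in ganglion cells (Gabra2 and Glrb) and 1 in bipolar cells (Glra1). Over the 13393 genes with at least 10 counts, 21.3% were highest in amacrine cells, 13.2% in ganglion cells and 14.1% in bipolar cells. A gene was called restricted when 1 class held at least 80% of the CPM summed over the 6 classes, which was met by Gabra3 and Glra3 in amacrine cells and Glra1 in bipolar cells. These 3 of 7 stand beside 15.5% of all genes restricted to any class, 4.57% to amacrine cells and 1.65% to bipolar cells. Without the ganglion cell column, the shallowest, 6 of the 7 were restricted, beside 17.2% of all genes. The median share of the highest class was 77.9% over the 7 genes and 43.7% over all genes. In cones, rods and Müller glia their levels reached at most 0.489 CPM, from 3 counts.

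**Figure D1:**
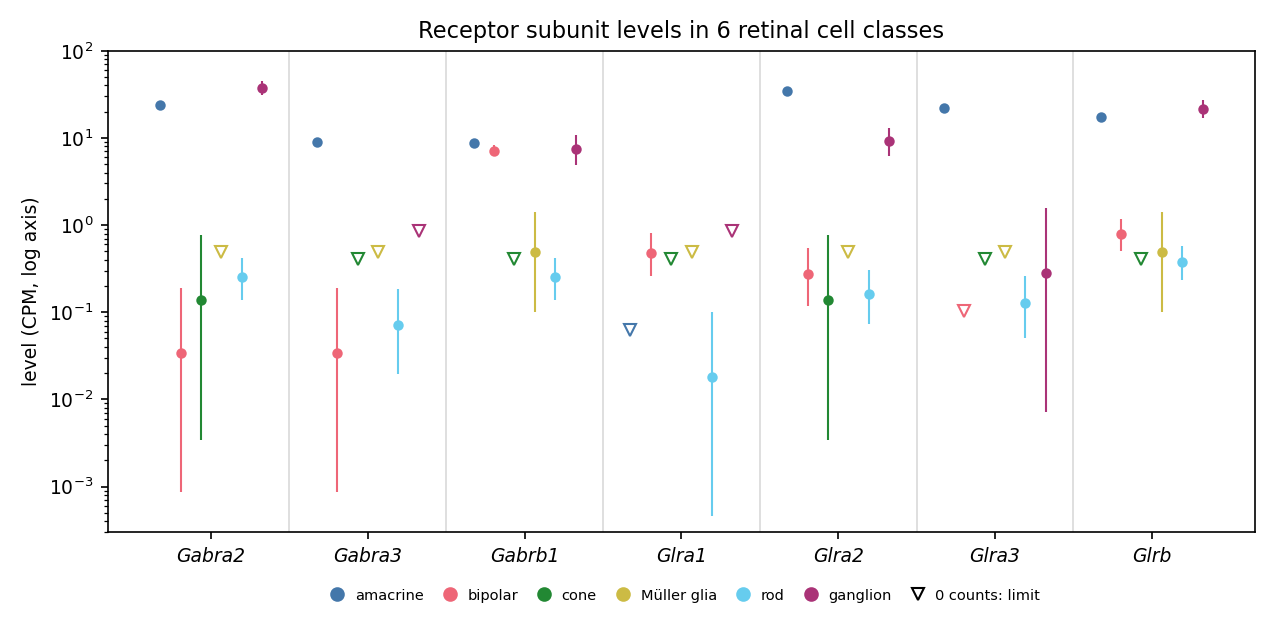
Level of each subunit (y axis, CPM on a log axis) in the 6 cell classes (colours), 1 pooled sample a class; bars are exact 95% Poisson intervals and open triangles mark the limit of 3 counts where the count was 0. Amacrine cells sit at 8.83 CPM or above for 6 genes, ganglion cells join them for Gabra2, Gabrb1, Glra2 and Glrb, and bipolar cells for Gabrb1.

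Among the α subunits of the GABA-A receptor, Gabra2 (ENSMUSG00000000560.9, chr5:70957597-71095849, minus strand) had 1160 counts in amacrine cells, 132 in ganglion cells, 14 in rods, 1 each in bipolar cells and cones and 0 in Müller glia. This was 24.0 CPM in amacrine cells (22.7 to 25.5), 37.6 CPM in ganglion cells (31.5 to 44.6) and 0.253 CPM in rods. The ganglion cell level was 1.56 times the amacrine level (interval of the ratio 1.30 to 1.87), and the amacrine level was 95.2 times that of rods (56.5 to 175). Together these 2 inner retinal classes held nearly all of it, ganglion cells 60.6% (56.0 to 64.8%) and amacrine cells 38.7%. In the ganglion column Gabra2 was at 156% of its amacrine level, and the 6 amacrine markers at 6.07% as a sum (5.12 to 7.14%) and singly from 0 for Slc6a9 to 40.1% for Gad2.

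Gabra3 (ENSMUSG00000031343.13, chrX:72432681-72656848, minus strand) had 430 counts in amacrine cells, 4 in rods, 1 in bipolar cells and 0 in cones, Müller glia and ganglion cells. Amacrine cells were at 8.91 CPM (8.09 to 9.80) and held 98.8% of the summed level (97.3 to 99.6%). They were at least 10.4-fold higher than ganglion cells, whose limit at 0 counts was 0.855 CPM (8.44-fold at the low end of the counting interval), and 124 times higher than rods (47.9 to 455). The 2 α subunits thus parted in ganglion cells, at 132 counts for Gabra2 and 0 for Gabra3 in the same column.

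The β subunit Gabrb1 (ENSMUSG00000029212.11, chr5:71658113-72149037, plus strand) was the most evenly spread. It had 426 counts in amacrine cells, 208 in bipolar cells, 26 in ganglion cells, 14 in rods, 3 in Müller glia and 0 in cones. The levels were 8.83 CPM in amacrine (8.01 to 9.71), 7.41 CPM in ganglion (4.84 to 10.9) and 7.17 CPM in bipolar cells (6.23 to 8.21). The amacrine level was 1.19 times that of ganglion cells (0.802 to 1.85), so these neighbours were not separated by counting error, nor were ganglion and bipolar cells at 1.03 times (0.659 to 1.56). Amacrine and bipolar cells were by CPM, at 1.23 times (1.04 to 1.46), although with no replicate. Scaling by the median of ratios lowered the amacrine level to 7.80 CPM, below its counting interval. It changed the amacrine total from 48248340 to 54581496 and the bipolar total only from 29010038 to 29615330. Under that scaling the ratio of amacrine to bipolar cells and its interval shrink by the same factor, and the interval then includes equal levels. Whether counting error separates amacrine from bipolar cells thus depends on the scaling. Amacrine cells stayed the highest class, with 33.8% of the summed level against 36.6% by CPM. In the bipolar column the amacrine markers were as a sum at 0.629% of their amacrine level, and Gabrb1 was at 81.2% (68.5 to 96.1%).

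Of the glycine receptor α subunits, Glra1 (ENSMUSG00000000263.15, chr11:55514238-55608198, minus strand), the subunit mutated in inherited startle disease, was barely covered. It had 14 counts in bipolar cells, 1 in rods and 0 elsewhere, or 0.483 CPM in bipolar cells (0.264 to 0.810). Bipolar cells held 96.4% of the summed level (80.3 to 99.9%) and were at least 7.76-fold above the limit of 3 counts in amacrine cells, or 5.52-fold at the low end of the counting interval. The limits at 0 counts were 0.411 CPM in cones, 0.489 CPM in Müller glia and 0.855 CPM in ganglion cells, so a difference from these 3 classes was not detectable at this depth although the gene met the rule for restriction.

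Glra2 (ENSMUSG00000018589.8, chrX:165129017-165327393, minus strand) had the most counts of the 7, with 1645 in amacrine cells, 32 in ganglion cells, 9 in rods, 8 in bipolar cells, 1 in cones and 0 in Müller glia. The amacrine level of 34.1 CPM (32.5 to 35.8) was 3.74 times the 9.12 CPM of ganglion cells (2.64 to 5.49). Amacrine cells held 77.9% (72.6 to 82.6%), just below the 80% of the rule. Bipolar cells and rods, at 0.276 and 0.162 CPM, did not differ beyond counting error (ratio 1.70, 0.570 to 4.96).

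Glra3 (ENSMUSG00000038257.10, chr8:55940460-56130070, plus strand) had 1062 counts in amacrine cells, 7 in rods, 1 in ganglion cells and 0 in bipolar cells, cones and Müller glia. The amacrine level was 22.0 CPM (20.7 to 23.4), with 98.2% of the summed level (96.4 to 99.2%). It was at least 213-fold above the limit of 3 counts in bipolar cells (173-fold at the low end) and 77.3 times that of ganglion cells (13.8 to 3054), a ratio that rests on 1 count.

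Glrb (ENSMUSG00000028020.16, chr3:80843599-80913660, minus strand), the β subunit of heteromeric glycine receptors, had 846 counts in amacrine cells, 76 in ganglion cells, 23 in bipolar cells, 21 in rods, 3 in Müller glia and 0 in cones. Ganglion cells were at 21.7 CPM (17.1 to 27.1) and amacrine cells at 17.5 CPM (16.4 to 18.8), a ratio of 1.23 (0.963 to 1.56). By CPM this does not separate them. Scaling by the median of ratios placed 55.8% of the summed level in ganglion cells against 53.0% by CPM. Under that scaling the ratio of ganglion to amacrine cells and its interval grow by the same factor, and the interval then excludes equal levels. Whether counting error separates ganglion from amacrine cells thus depends on the scaling, and there was no replicate. Bipolar cells, at 0.793 CPM, were 22.1 times below amacrine cells (14.6 to 35.1) and 2.09 times above rods (1.11 to 3.98). In the bipolar column Glrb was at 4.52% of its amacrine level (2.85 to 6.83%), the 6 amacrine markers at 0.629% as a sum, and the highest of them, Slc6a9, at 2.16% (0.985 to 4.13%).

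The rod column held 1 to 21 counts of each subunit. Relative to amacrine cells these ranged from 0.476% for Glra2 to 2.86% for Gabrb1 over the 6 genes with amacrine counts. The amacrine marker sum was at 1.92% in rods (1.78 to 2.07%), and single markers ran from 0.546% for Tfap2a to 25.3% for Slc6a9 (21.5 to 29.6%). In the ganglion column the 6 genes ran from 0 counts for Gabra3 and 1.29% for Glra3, through 26.7% for Glra2 (18.2 to 37.9%), 83.9% for Gabrb1 and 123% for Glrb, to 156% for Gabra2. Single amacrine markers varied there as well: of the genes for GABA-synthesizing enzymes, Gad1 was at 0.651% and Gad2 at 40.1% (19.9 to 72.6%, 11 counts). Against rods, amacrine cells were at least 4-fold higher for all 6 genes with 10 counts in the pair, as for 23.8% of all genes. Against bipolar cells this held for 5 of 7, as for 18.4%, and ganglion cells were 4-fold above amacrine cells for 0 of 6, as for 5.32%.

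**Figure D2:**
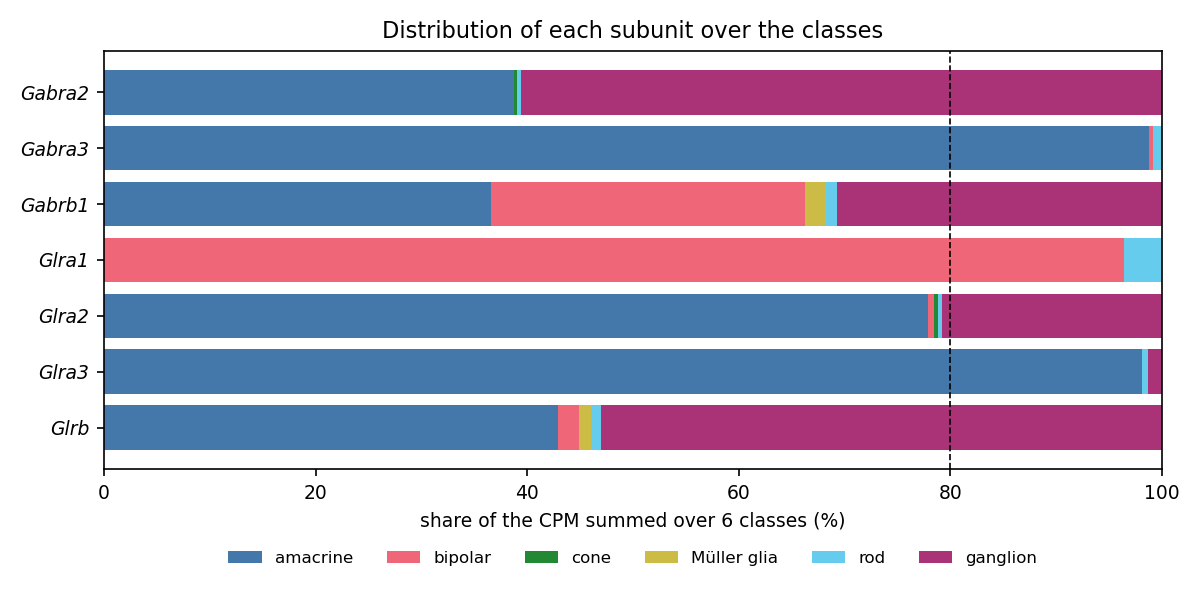
Share of the CPM summed over the 6 cell classes (x axis, percent) for each subunit, with 1 colour a class; the dashed line marks 80%. Gabra3 and Glra3 are amacrine and Glra1 bipolar beyond the line, Glra2 ends its amacrine part at 77.9%, and Gabra2 and Glrb are divided between ganglion and amacrine cells.

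For each gene with at least 50 counts, the most similar class distributions were sought among genes with at least 100 counts. The distance was the sum of absolute differences in share divided by 2, in percentage points over the 6 classes. Nearest to Gabra2 were Paupar (1.21 points), Kcnc2 (1.27) and Elavl4 (1.77), and 60 genes were within 10 points. Nearest to Gabra3 were Slc30a3 (0.382 points), Hmcn1 (0.390) and Dytn (0.485), with 108 genes within 10 points. Glra3 was nearest to Vip, a neuropeptide gene of amacrine cells (0.475 points), Rspo4 (0.980) and Gtf2a1l (1.07), with 111 within 10 points. Glra2 was nearest to Fut9 (2.45 points), Baalc (2.69) and Anks1b (3.80), and Glrb to Csdc2 (1.52) and Dll3 (1.61). Gabrb1 had the fewest near genes, 14 within 10 points, led by Rit2 (1.99 points), Gabbr2 (5.00), which encodes a subunit of the metabotropic GABA-B receptor, and Faim2 (5.42). The nearness describes these 6 pooled values only.

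Many of the counts lay on transcripts outside the reference. Of the 16 isoforms, 12 had no Ensembl identifier, and they held 3426 of 6169 counts, or 55.5%, against 8.65% over all Ensembl genes. The most abundant isoform had no Ensembl identifier for 5 of 7 genes (Gabra2, Gabra3, Gabrb1, Glra1 and Glra3), beside 38.6% of all genes. Over all genes an Ensembl identifier with an added suffix was counted as none, so 8.65% and 38.6% are upper limits. None of the 16 isoforms had such a suffixed identifier. A structure could be read for 13 isoforms, from the deposited models or from the reference transcript of that identifier, and the other 3, with 0 counts in rods and so no deposited model, held 167 counts. Of 82 introns in these structures, counted once per isoform, 81 were annotated. Introns of isoforms with an Ensembl identifier are annotated by definition, and the share over all genes was not computed.

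In 5 of 7 genes the most abundant isoform stopped inside an annotated intron and held no annotated stop codon. Over all protein-coding genes the most abundant isoform lacked every annotated stop codon in 18% and ended outside annotated exons in 11.3%. Among genes with at least 435 counts, the lowest total of the 6 better covered subunits, it lacked the stop codon in 11.5%. By counts, 3174 of the 6002 counts with a structure, 52.9% (51.6 to 54.2%), lay on isoforms without the stop codon, against 1.56% over all protein-coding genes, a share that weights genes by their counts. In amacrine cells this was 51.0% for the 7 genes and 1.31% for all, in bipolar cells 87.8% and 1.78%, and in ganglion cells 58.1% and 0.851%. The bases of the introns at these ends were not analysed here, and what sets the ends was not tested.

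The main isoform of Gabra2, with 1143 of 1308 counts, had 4 exons (chr5:71033432-71095849, 1844 nt). It ended 1298 nt beyond the 68-nt exon, exon 4 of 10, in an intron of 20093 nt, and so held 255 of 1353 coding bases (18.8%) and not the Cys-loop exon printed above. The nearest annotated 3′ end was 58318 nt away. Isoform 2, with 59 counts, had another first exon and the same last base. Isoform 3, with 54 counts, had 8 exons and the stop codon, but joined exon 4 to exon 7, the single unannotated intron of the set. It left out the 221-nt exon and the 83-nt exon, 304 nt that are not a multiple of 3 (remainder 1).

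Gabrb1 and Glra3 both ran on from the Cys-loop exon. The main isoform of Gabrb1 (chr5:71699932-72030208, 5 exons, 927 nt, 556 of 677 counts) ended 299 nt beyond exon 5 of 9, in an intron of 78398 nt, with 544 of 1422 coding bases (38.3%). Isoform 3, with 22 counts and other first exons, reached 778 nt into the same intron. The single isoform of Glra3 (chr8:55940460-56062639, 5 exons, 1144 nt, 1070 counts) ended 126 nt beyond exon 5 of 10, in an intron of 22600 nt, with 622 of 1440 coding bases (43.2%). Transcripts of these 2 genes with the stop codon were at 0 counts among the structures read, although isoform 2 of Gabrb1, with 99 counts, had no structure. The exons for the transmembrane segments follow the Cys-loop exon, and neither model held them.

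The main isoform of Gabra3 (chrX:72499895-72656186, 5 exons, 1950 nt, 309 of 435 counts) ended 1184 nt beyond its 221-nt exon, exon 5 of 10, in an intron of 24770 nt, with 586 of 1599 coding bases (36.6%). An annotated 3′ end lay 1299 nt away. ENSMUST00000055966.12, with 10 exons, the stop codon and 1511 of the 1599 bases, had 110 counts, all in amacrine cells. The 1599 bases are those of another annotated transcript, ENSMUST00000114554.2, whose first exon holds 80 of them. Both Gabra3 isoforms use a different annotated first exon, so their coding bases were counted against a transcript with another start. The isoform of Glra1 (chr11:55519813-55608591, 8 exons, 3026 nt, 15 counts) held more, 1059 of 1371 coding bases (77.2%), and ended 1109 nt beyond exon 8 of 9, in an intron of 5794 nt. Glra2 and Glrb were complete: ENSMUST00000058787.8 with 9 exons held all 1356 coding bases of Glra2, and ENSMUST00000029654.14 with 10 exons all 1488 of Glrb. These 2 genes were the ones whose main isoform reached the annotated stop codon.

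**Figure D3:**
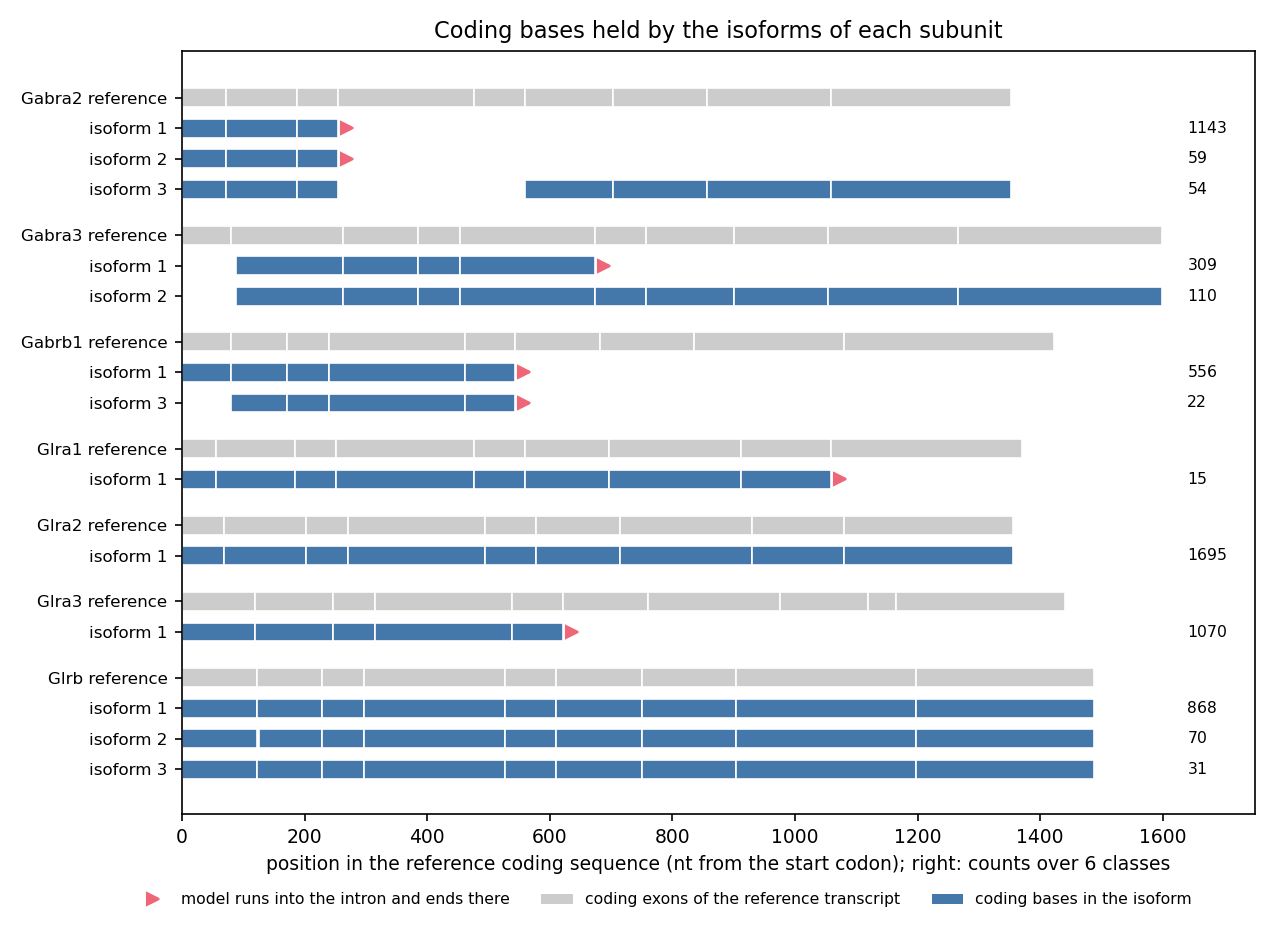
Coding bases held by each isoform with a structure (blue) under the coding exons of the reference transcript (grey), by position in the reference coding sequence (x axis, nt from the start codon), with the counts over the 6 classes at the right; arrowheads mark models that run into an intron and end there. Models of Gabra2, Gabra3, Gabrb1, Glra1 and Glra3 stop before the end, Gabra2 after 255 of 1353 nt, and Glra2 and Glrb reach it.

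Glrb had 2 minor isoforms that hold the bases of the stop codon but whose reading frame from the annotated start closes earlier, and the bases that close it are shown. Isoform 3, with 31 counts and 11 exons, included an annotated cassette exon of 152 nt (chr3:80908787-80908938, remainder 2 by 3). Its first 52 bases follow, with the stop codon in capitals, chr3:80908887-80908938, minus strand: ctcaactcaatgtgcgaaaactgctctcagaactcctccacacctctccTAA
ENSMUST00000135043.7, with 70 counts, left out the first 4 bases of a 107-nt exon (chr3:80879626-80879732). In the stretch that follows, the leading capitals TCAG are these 4 bases and the closing capitals are the stop codon of the shifted frame, chr3:80879674-80879732, minus strand: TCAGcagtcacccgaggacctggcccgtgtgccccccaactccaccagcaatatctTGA
The 868 counts of ENSMUST00000029654.14 used neither change.

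Isoform use was then compared wherever a class had 20 or more counts. In Gabra2 the main isoform had 1026 of 1160 amacrine counts, 88.4% (at least 86.5% by its interval), and 109 of 132 ganglion cell counts, 82.6% (75.0 to 88.6%). Isoform 2, with the other first exon, had 3.71% in amacrine cells (2.70 to 4.96%) and 10.6% in ganglion cells (5.92 to 17.2%), intervals that do not overlap. Isoform 3, which lacks the Cys-loop exon, made up 48 of the 1160 amacrine counts, 4.14%, but 0 of the 132 ganglion cell counts, which allows up to 2.76% by the exact interval. It also had 6 of the 14 rod counts, as many as the main isoform there.

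In Gabra3 only amacrine cells were covered: the intronic-end isoform had 304 of 430 counts, 70.7% (66.1 to 75.0%), and ENSMUST00000055966.12, with the stop codon, 25.6% (21.5 to 30.0%). Gabrb1 differed most between classes. Its main isoform had 207 of 208 counts in bipolar cells, 99.5% (at least 97.4% by its interval), all 26 in ganglion cells, and 308 of 426 in amacrine cells, 72.3% (67.8 to 76.5%). The remaining amacrine counts were mostly those of isoform 2, with 99 counts (23.2%, 19.3 to 27.5%) in amacrine cells and 0 in the other 5 classes, including 0 of 208 in bipolar cells. That isoform had no structure among the models used here. In Glrb, ENSMUST00000029654.14 had 89.1% in amacrine cells (754 of 846), 92.1% in ganglion cells (70 of 76), 22 of 23 counts in bipolar cells and 19 of 21 in rods. The shifted-frame transcript ENSMUST00000135043.7 was at 7.45% in amacrine and 7.89% in ganglion cells, within each other's intervals. Glra1, Glra2 and Glra3 had 1 isoform each.

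**Figure D4:**
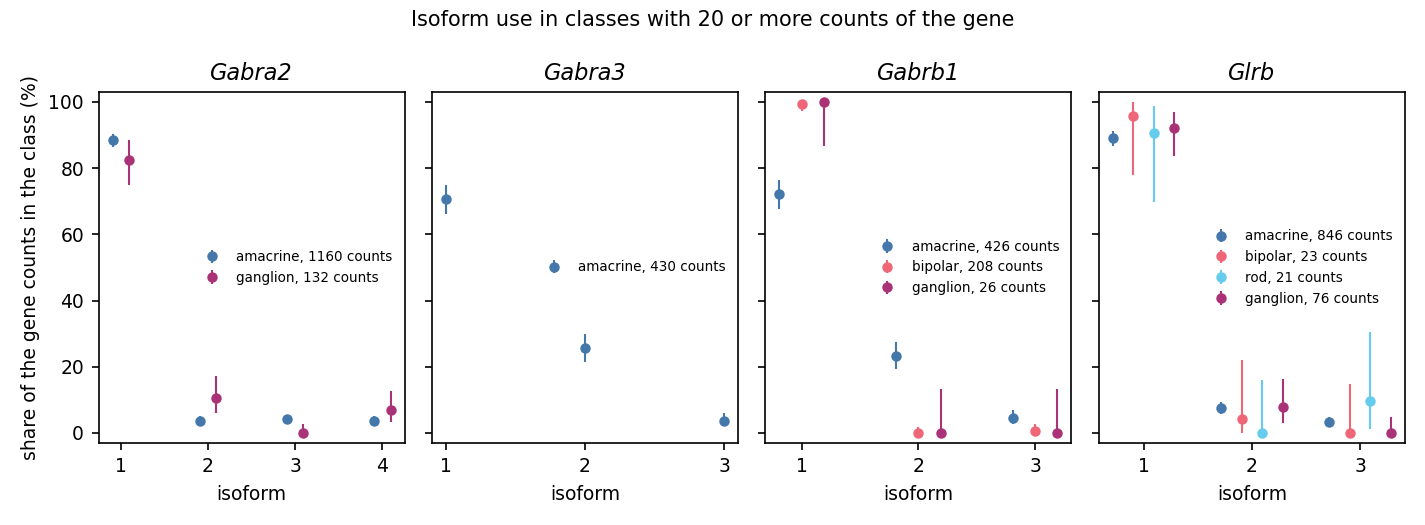
Share of a gene's counts in a class (y axis, percent) held by each isoform (x axis, numbered by counts) in classes with 20 or more counts (colours), 1 pooled sample a class; bars are exact 95% Clopper-Pearson intervals. In Gabrb1 isoform 2 is at 23.2% in amacrine cells and at 0 in bipolar and ganglion cells, and no gene changes its main isoform.

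A switch was defined as a different most abundant isoform in 2 classes with a difference of at least 50 points in share. Of the 7 genes, 3 could be compared (Gabra2, Gabrb1 and Glrb), and 0 of 3 switched, beside 25% of the 7317 genes compared. The differences in share reached 27.7 points for Gabrb1 (amacrine against ganglion cells, and 27.2 points against bipolar cells), 9.52 points for Glrb, where the rods compared had 21 counts, and 6.90 points for Gabra2.

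The wider inhibitory machinery was read from a list of 41 genes, of which 35 were in the table, all with at least 10 counts. They were highest in amacrine cells for 13, bipolar cells for 13, rods and ganglion cells for 4 each, Müller glia for 1 and cones for 0. Of the 9 other GABA-A subunits in the table, 4 were highest in amacrine and 5 in bipolar cells. Gabrg1, which encodes a γ subunit, was restricted to amacrine cells (2.51 CPM, 83.4%). The ρ subunits, which form the GABA receptors of bipolar terminals, were all bipolar: Gabrr1 at 382 CPM (93.4%), Gabrr2 at 380 CPM (91.6%) and Gabrr3 at 28.2 CPM (70.3%), each with 0 counts in ganglion cells. The remaining glycine α gene, Glra4, was restricted to amacrine cells, with 116 of 118 counts there (88.8% of the summed level).

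Of the genes for making and loading the transmitters, Gad1 (87.5 CPM, 97.4%) and the vesicular transporter Slc32a1 (38.3 CPM, 90.8%) were restricted to amacrine cells. The chloride importer Slc12a2 had 23 counts, all in bipolar cells, and the chloride exporter Slc12a5 was at 34.8 CPM in bipolar cells and 2.24 CPM in amacrine cells. Of the GABA-B genes, Gabbr1 had the most counts (2705), with 77.5 CPM in ganglion cells, followed by amacrine cells at 40.4 CPM and Müller glia at 35.7 CPM. Gabarapl2, a ubiquitin-like gene, had the most counts among clustering and trafficking genes (209066) and was even, at 1772 CPM in amacrine cells and 960 CPM in rods.

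The ends of the transcripts were read for these genes as well. The most abundant isoform lacked the stop codon in 5 of 33 with a structure, among them Gabrb2, Gphn, Nlgn2 and Slc12a5, and ended outside annotated exons in 3 of 33, beside the 18% and 11.3% of all protein-coding genes. Among the 12 other receptor subunits with a structure it lacked the stop codon in 1, Gabrb2, and ended outside exons in 0. The glycine receptor gene Glra4 was not among these 12, as its most abundant isoform had no structure. Its 40 counts with a structure all lay on isoforms without the stop codon. The shares of these lists differ from the 5 of 7 above, but both lists were chosen with results in view and the difference was not tested.

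Switches were found in 8 of the 21 listed genes that could be compared, beside the 25% of all genes, among them Gphn, Gabarap, Plcl1, Ubqln1, Slc12a5 and Slc6a9. Gphn encodes gephyrin, the partner of Glrb. An 8-exon isoform without the stop codon, with 37.3% of the coding bases, had 855 of 996 Gphn counts in amacrine cells (85.8%, 83.5 to 88.0%), 504 of 838 in bipolar cells (60.1%) and all 51 in ganglion cells. The full-length ENSMUST00000110388.9, with 23 exons, had 227 of 293 Gphn counts in rods (77.5%, 72.3 to 82.1%), 44 of 59 in cones and 26 of 29 in Müller glia, and 10 of 996 in amacrine cells. In Slc12a5 the short 3-exon ENSMUST00000125867.1 led in amacrine cells (78 of 108) and an 8-exon model in bipolar cells (706 of 1009), both without the stop codon. The short one is annotated as a nonsense-mediated decay transcript and holds 3.54% of the coding bases. In Slc6a9, the glycine transporter gene, 2 isoforms that hold the stop codon exchanged rank. The 13-exon one took 571 of the 692 amacrine counts but 35 of the 201 rod counts, where ENSMUST00000030269.13 had 94. Gabarap changed between a 4-exon isoform, 501 of 674 counts in amacrine cells, and ENSMUST00000144443.1, 269 of 318 in rods. The 4-exon isoform holds 74.4% of the coding bases, and ENSMUST00000144443.1 is annotated as a retained-intron transcript. Plcl1 and Ubqln1 switched between amacrine cells and rods as well, with 93 of 143 and 25 of 41 amacrine counts on the isoform that led there.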

How the data were processed

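The authors deposited whole-number counts per isoform in 6 class columns, and transcript models that name FLAIR, a long-read isoform builder, as their source, per the file contents. The submitters' processing notes name mm10, the GRCm38 assembly. The aligner, filters, cell typing, doublet handling and whether reads were collapsed to molecules are not given in the sources used here. Models were deposited for the 36426 of 44325 isoforms with a count in rods. The 7 genes, the gene lists and the rules were chosen with earlier results of these data known.

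Isoform counts were summed per gene and scaled to a column total of 1000000 (CPM). Poisson, conditional binomial (ratios) and Clopper-Pearson 95% intervals were computed, with a limit of 3 counts for a count of 0. Columns were also scaled by the median of ratios and by a trimmed mean of M-values, both computed with numpy 2.4.6. Models, or for identifiers without one the M21 transcript, were compared with GENCODE M21 on GRCm38. The reference transcript was the one with the longest coding sequence. A stop codon was held when the exons covered that of any protein-coding transcript. An end was outside when the last base was in no annotated exon.

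All 7 genes were named, with isoforms of at least 10% of a class of 20 or more counts singly. Of the list, genes restricted or switched and the one with the most counts in each group were named, some of which are not reported here, and Gabrr3 and the genes listed for their transcript ends were chosen after their values were seen. A test with libraries as replicates was planned but the columns name no library. Of the columns, 0 were unused. The rules were checked on simulated data.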

Additional observations from a re-analysis of the deposited data

How the results depend on the processing

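No paired analysis was possible because no column of the table can be tied to a library, and for the same reason no library could be left out. Without the ganglion cell column, the shallowest, 6 of the 7 genes were restricted in place of 3 and 6 were highest in amacrine cells in place of 4, while over all genes 17.2% were restricted in place of 15.5% and 28.8% highest in amacrine cells in place of 21.3%, with Gabra2 and Glra2 each at 98.3% and Glrb at 91.3% in amacrine cells. Genes with a switch numbered 1828 of the 7317 compared. A minimum of 10 counts gave 2900 of 8182, and a minimum of 100 counts 486 of 4739. A difference of 25 points gave 2812 of 7317, and the depth of ganglion cells (1 draw) 709 of 4236. Only 3 of the 7 genes could be compared in these settings, and 2 with 100 counts, and 0 of them switched each time. The other scalings and thinning left 3 restricted genes and 4 highest in amacrine cells. Summing isoforms with the same introns gave 1817 switched genes of 7307 compared, with 0 of the 3 comparable subunits among them. Chosen after seeing the data, a limit of 70% gave 4 restricted genes, with Glra2 added. The share of all genes at that limit was not computed. The stop codon of the longest coding sequence left 5 of 7 genes without it. The most abundant amacrine isoform left 4 of the 6 genes with amacrine counts, as Glra1 had none. For these 2 settings the share over all genes was not computed. Taking only isoforms with an Ensembl identifier lowered Gabra3 in amacrine cells from 8.91 to 2.28 CPM and left Gabra2, Gabrb1, Glra1 and Glra3 without counts. Depth limits statements on Glra1 and on every 0 in ganglion cells, cones and Müller glia.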
